A study of Mus musculus with 36 samples.

Results

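Nuclear pore and nuclear transport genes were taken from the count tables by symbol: Kpna, Ipo, Tnpo or Nup followed by a digit, Xpo followed by a digit or t, and Kpnb1, Ran and Cse1l. This rule found 47 of the 40205 features counted, of which 45 had at least 1 count in any of the 36 libraries. They are 6 importin alpha genes, 12 import receptors, 7 exportins, the GTPase Ran and 21 nucleoporins. Nup42 and Nup58, which the files list under other symbols, are outside the rule.

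The nuclear pore complex is a channel through the nuclear envelope that is built from many copies of each nucleoporin, with an outer and an inner ring as scaffold and flexible nucleoporins that line the channel. Importins carry cargo with a localization signal into the nucleus, exportins carry cargo out, and the GTPase Ran sets the direction by loading and unloading these receptors on either side. Importin alpha binds the classical signal and is itself carried by importin beta, the product of Kpnb1, after which Cse1l returns importin alpha to the cytoplasm. The importin alpha subtypes in use are known to shift as stem cells turn into neurons, and several nucleoporins and import receptors also act at the mitotic spindle or kinetochore.

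RNA was sequenced from neural stem cell (NSC) neurosphere cultures and from the extracellular vesicles (EVs) in their medium. The cells came from GD 12.5 fetal dorsal telencephalon of mice that the labels give as strain C57BL/6J and genotype WT and the study's methods as C57BL/6J (Ai14), a line with a Cre-dependent fluorescent reporter, and were pooled by sex within each of 3 pregnancies (sets 3, 4 and 5), and used at passages 7 to 10, so that the unit of replication is a pooled culture and not a fetus. Each of the 6 cultures (female and male of each pregnancy) was kept for 5 days in control medium (0 mg/dL ethanol) or in medium with 120 or 320 mg/dL ethanol, and each culture and dose gave 1 cell library and 1 EV library, the EV fraction being the pellet of an ultracentrifugation. The groups therefore held 18 EV and 18 cell libraries, or 6 libraries for each location and dose, and 3 when split by sex as well.

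Totals ranged from 26566061 to 55282322 counts in cells and from 959217 to 5509952 in EVs, where the 6 smallest libraries held 959217 to 1605442 counts. The members took 0.297 to 0.568% of the counts in cells and 0.0934 to 0.278% in EVs. Of 10 NSC markers, 9 were detected in cells, among them Nes at 79.0 to 411 CPM (counts scaled to a common library size after TMM, edgeR's correction for composition), whereas Sox2 was listed at 0 in every library. Summed markers of neurons reached at most 44.1 CPM in cells and 80.4 CPM in EVs, those of astrocytes 14.6 to 232 and 10.9 to 130 CPM with Aqp4 at 0, and those of the oligodendrocyte lineage 49.0 to 167 and 49.8 to 135 CPM. Microglial markers summed to at most 0.582 CPM in cells and 11.7 CPM in EVs with P2ry12 at 0, endothelial markers to at most 2.17 and 13.6 CPM with Cldn5 at 0 in EVs, and blood markers to at most 0.0787 and 1.70 CPM. The part of these cell types in the results below was not tested, and in bulk samples fewer cells of a type and less RNA per cell cannot be told apart.

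The first comparison asked which transcripts were higher or lower in EVs than in the cells that released them. The study gives a high RNA integrity number for cell RNA. For EV RNA it states that the little ribosomal RNA present did not allow an accurate number. The part of RNA quality in the differences between EVs and cells was not tested. Most nuclear transport genes were lower in EVs: of 43 members that passed the filter on low counts, 27 were lower and 9 were higher, and 7 did not pass the threshold (edgeR quasi-likelihood test, Benjamini-Hochberg adjusted p under 0.05 over all genes tested, here and below). Among all 15281 genes tested, 80.5% passed the threshold, 42.2% as lower and 38.4% as higher. The members' median log2 fold change was -0.89, beside -0.08 over all genes tested, which include many at lower levels in cells. Most members lay above 15 CPM in cells. At 15 to 50, 50 to 150 and over 150 CPM their medians were -0.23, -0.99 and -0.99. Protein-coding genes at these levels had medians of -0.55, -0.84 and -1.17. The EV and cell libraries did not overlap for 20 of the 43, with EVs below cells for 19 and above cells for 1, against 23.8% of all genes tested without overlap. With library totals in place of TMM the median of all genes moved to -0.88 and the split to 36 lower and 4 higher, so a direction here is relative to the other genes of a library; 27 of the 27 lower members and 4 of the 9 higher ones (Kpna6, Kpnb1, Ipo13 and Nup62cl) kept their direction and call on that scale. The same 27 and the same 4 kept them on counts summed over the doses of a culture, where the 6 cultures rather than the 18 libraries of a location are the replicates. Both fits also moved values downward. Kpna1 went from -1.29 to -2.08 on library totals and -1.60 on summed counts, and Nup214 from 0.57 to -0.20 and 0.26. Lower members that stayed lower there are thus no separate support. Higher calls lost on summed counts cannot be told apart from this shift.

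**Figure D1:**
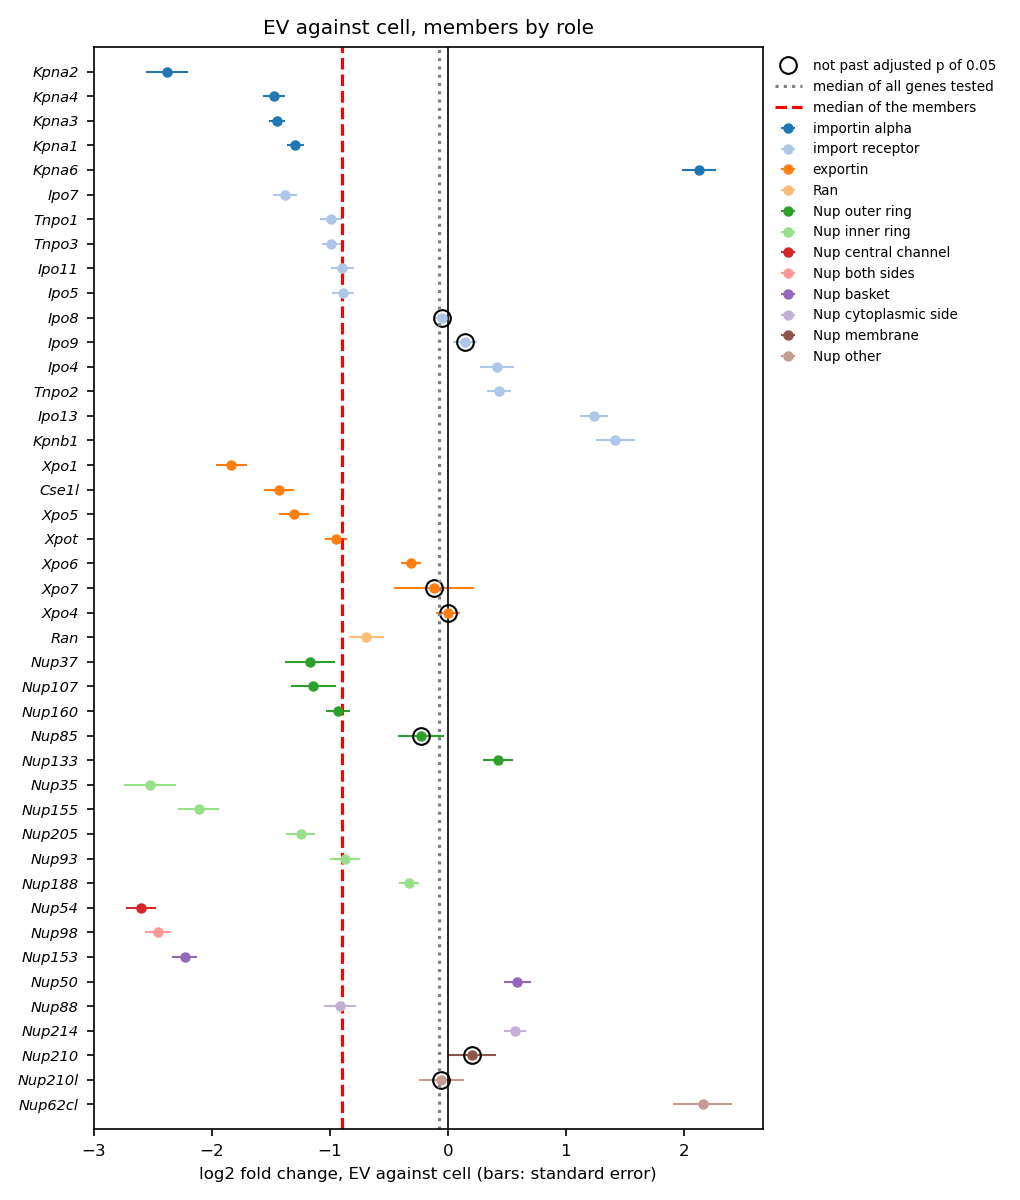
Log2 fold change of EV against cell with its standard error for the 43 members tested, coloured by role, with a ring around the 7 that did not pass the threshold and vertical lines at the medians of the members (-0.89) and of all genes tested (-0.08). Most points lie left of 0, and Kpna6 and Nup62cl lie farthest right.

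The importin alpha genes, whose products recognise the classical nuclear localization signal, split into 4 that were lower in EVs and 1 that was higher. Kpna1 measured 66.1, 76.7 and 90.5 CPM (lowest, median and highest of 18 libraries) in cells and 23.7, 32.0 and 40.0 CPM in EVs. No EV library reached the lowest cell library, and the gene was 2.45-fold lower in EVs (log2 fold change -1.29, adjusted p = 2.52e-18, SE 0.07). Kpna2, the subtype known from proliferating and pluripotent cells, was at 15.9, 27.1 and 70.8 CPM in cells and at 3.08, 5.73 and 9.72 CPM in EVs, again without overlap. Its log2 fold change was -2.38 (adjusted p = 1.56e-14, SE 0.18), the lowest of the family, on 3 to 32 counts per EV library. Kpna3 and Kpna4, a closely related pair, fell by 1.45 (adjusted p = 1.11e-19, SE 0.07) and 1.47 (adjusted p = 1.11e-16, SE 0.09) on the log2 scale, with no library of either location inside the range of the other.

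Kpna6, a subtype close to Kpna1 in sequence, went the other way. It measured 41.9, 52.2 and 70.3 CPM in cells and 92.5, 247 and 434 CPM in EVs. Every EV library lay above every cell library, which held for no other member, and the log2 fold change was 2.13 (adjusted p = 9.93e-16, SE 0.15), or 4.37-fold. The remaining importin alpha gene, Kpna7, known mainly from oocytes and early embryos, did not pass the filter, with 0 to 13 counts in cells and 0 to 8 in EVs.

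**Figure D2:**
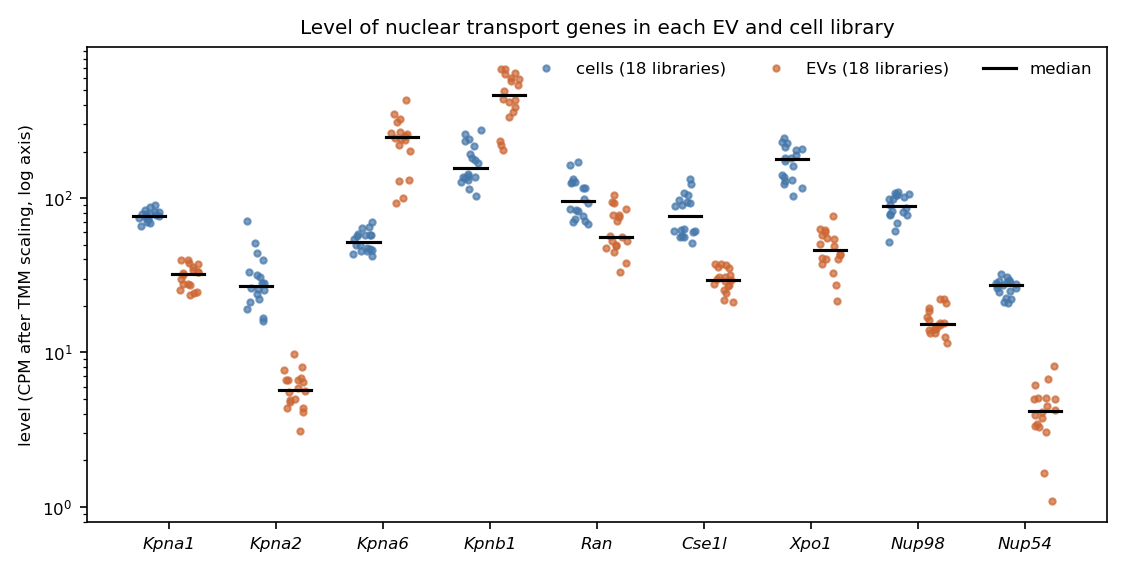
Level in CPM on a log axis of 9 members in each of the 18 cell (blue) and 18 EV (orange) libraries, with the median of each location as a black line. EVs lie below cells for Kpna1, Kpna2, Cse1l, Xpo1, Nup98 and Nup54, above cells for Kpna6, and the ranges overlap for Kpnb1 and Ran.

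The sequences of a shared coding exon show how alike the members of each related pair are while the EV levels of Kpna1 and Kpna6 diverged and those of Kpna3 and Kpna4 did not. Each is the last but 1 or last but 2 coding exon of the canonical GENCODE transcript on GRCm39, printed in the direction of the transcript, with G or C at the third codon positions in capitals. Kpna1 lies at chr16:35853622-35853800 (+ strand), Kpna6 at chr4:129542991-129543169 (- strand), Kpna3 at chr14:61607832-61607994 (- strand) and Kpna4 at chr3:68986710-68986872 (- strand).
Kpna1: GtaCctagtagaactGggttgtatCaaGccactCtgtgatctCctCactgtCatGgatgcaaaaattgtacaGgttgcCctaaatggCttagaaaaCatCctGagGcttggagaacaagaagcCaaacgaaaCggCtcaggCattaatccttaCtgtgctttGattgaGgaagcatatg
Kpna6: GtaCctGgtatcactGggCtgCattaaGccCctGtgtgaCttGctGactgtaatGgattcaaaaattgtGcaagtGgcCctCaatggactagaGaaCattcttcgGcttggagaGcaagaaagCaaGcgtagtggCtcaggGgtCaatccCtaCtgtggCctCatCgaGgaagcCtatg
Kpna3: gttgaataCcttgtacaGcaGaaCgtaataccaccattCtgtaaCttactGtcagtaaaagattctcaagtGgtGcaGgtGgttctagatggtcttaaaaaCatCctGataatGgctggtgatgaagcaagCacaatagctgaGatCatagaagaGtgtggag
Kpna4: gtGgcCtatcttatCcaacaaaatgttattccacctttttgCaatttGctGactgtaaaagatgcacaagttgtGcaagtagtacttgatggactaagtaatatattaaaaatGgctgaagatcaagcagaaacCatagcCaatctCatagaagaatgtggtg

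The Kpna1 and Kpna6 exons were identical at 138 of 179 positions (77.1%), and 29 of the 41 differences fell at the third codon positions. Of the third codon positions, 24 of 60 held G or C in Kpna1 and 33 of 60 in Kpna6. The Kpna3 and Kpna4 exons were identical at 116 of 163 positions (71.2%), and 19 and 11 of 54 of the third codon positions held G or C. Over the whole coding sequence the share of G or C at the third codon positions was 42.9% in Kpna1, 38.2% in Kpna3, 33% in Kpna4 and 55% in Kpna6. For Kpna2 these positions were not counted. Over all coding positions it held 46.4% G or C, beside 44.5% in Kpna1, 42.6% in Kpna3, 40.7% in Kpna4 and 49.0% in Kpna6. Kpna2 had the lowest log2 fold change of these genes (-2.38), and the part of G+C content in these values was not tested.

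The import receptors, which include importin beta and the transportins, were split: of 11 tested, 5 were lower in EVs, 4 were higher and 2 did not pass. Kpnb1, the importin beta that carries importin alpha with its cargo, measured 103, 156 and 277 CPM in cells and 204, 468 and 690 CPM in EVs. The ranges overlapped, and Kpnb1 was 2.67-fold higher in EVs (log2 fold change 1.42, adjusted p = 5.97e-10, SE 0.16) and higher in 6 of 6 cultures. Ipo13, an importin that also returns cargo from the nucleus, was at 14, 17.8 and 23.5 CPM in cells and 20.4, 43.0 and 65.4 CPM in EVs. It was higher in all 6 cultures, at a log2 ratio of 1.24 (adjusted p = 6.92e-12, SE 0.12). Tnpo2 and Ipo4 were higher by 0.43 and 0.42 on the log2 scale, and both had a log2 fold change below 0 (-0.38 and -0.37) when library totals were used, that of Tnpo2 with an adjusted p of 0.0196. On counts summed over the doses of a culture, with 6 cultures as the replicates, neither passed (0.08, adjusted p = 0.708 for Tnpo2 and 0.13, adjusted p = 0.606 for Ipo4).

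Ipo7, which carries ribosomal proteins and histones among others, was the most lowered import receptor at -1.38 (adjusted p = 5.22e-15, SE 0.10), with 226 to 408 CPM in cells and 82.7 to 143 CPM in EVs. Tnpo1 and Tnpo3, which import RNA-binding and splicing proteins, fell by 0.99 each on the log2 scale, and Ipo5 and Ipo11 fell by 0.89 each. Ipo8 (-0.05, adjusted p = 0.459) and Ipo9 (0.14, adjusted p = 0.198) did not pass. The readthrough feature Ipo11-lrrc70 was listed at 0 in every library.

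Exportins and Ran were lower or did not pass. Xpo1, the main exportin for proteins with a leucine-rich export signal, measured 103, 178 and 243 CPM in cells and 21.6, 46.4 and 76.3 CPM in EVs, without overlap. Its log2 fold change was -1.84 (adjusted p = 2.41e-15, SE 0.13). Cse1l, the exportin of importin alpha, stood at 51.5, 76.1 and 133 CPM in cells and at 21.1, 29.6 and 37.2 CPM in EVs. It fell by 1.43 (adjusted p = 2.01e-12, SE 0.13) and its ranges did not overlap. In the annotation 37.3% of its exon bases also lie in Stau1 on the other strand. Xpo5, the exportin of microRNA precursors, fell by 1.31 and Xpot, the tRNA exportin, by 0.95 on the log2 scale. Ran measured 68.1, 95.8 and 172 CPM in cells and 33.2, 56.1 and 105 CPM in EVs, which overlapped, at a log2 ratio of -0.69 (adjusted p = 9.69e-05, SE 0.15) and lower levels in 5 of 6 cultures. Without the pairs of the 6 smallest EV libraries, an alternative chosen after seeing the data, Ran was at -0.45 (adjusted p = 0.0404).

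Xpo6, the actin exportin, was lower by a smaller amount (-0.31, adjusted p = 0.000886), and without pregnancy 5 it no longer passed (-0.18, adjusted p = 0.121). Xpo4 did not differ beyond the error (0.00, adjusted p = 0.986, SE 0.10). Xpo7, chosen for its values after they were seen, was at 31.4 to 134 CPM in 17 EV libraries and at 1037 CPM (611 counts) in the female EV library of pregnancy 4 at 320 mg/dL. That library held 1548111 counts and had the smallest TMM scaling factor of all 36 libraries (0.383). The log2 fold change of Xpo7 was -0.12 (adjusted p = 0.761, SE 0.34). It was -0.84 (adjusted p = 0.0034) without pregnancy 4 and -1.15 (adjusted p = 2.54e-07) without the pairs of the 6 smallest EV libraries, both of which leave that library out together with others, and -0.71 (adjusted p = 0.0155) when the EV and cell libraries were paired as a block.

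The nucleoporins, the building blocks of the pore, gave 12 lower, 4 higher and 3 not past the threshold of 19 tested. All 5 inner ring genes, which join the pore to the membrane and hold the channel, were lower. Nup35 was at 7.21, 9.45 and 15.8 CPM in cells and at 0, 1.69 and 3.94 CPM in EVs (0 to 10 counts), and its log2 fold change was -2.53 (adjusted p = 8.17e-13, SE 0.22). Nup155 (-2.11), Nup205 (-1.25) and Nup93 (-0.87) followed, and Nup188 was the least lowered (-0.33, adjusted p = 0.000573), a call that was lost without pregnancy 5 (-0.21, adjusted p = 0.075). In Nup188 28.9% of the exon bases lie in Sh3glb2 on the other strand.

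Nup54, a channel nucleoporin, was at 20.7, 27.2 and 32.0 CPM in cells and 1.09, 4.17 and 8.22 CPM in EVs, with the lowest log2 fold change of the 43 (-2.60, adjusted p = 8.58e-20, SE 0.13). Nup98, found on both faces of the pore and also inside the nucleus, measured 51.7, 88.4 and 110 CPM in cells and 11.5, 15.2 and 22.1 CPM in EVs. Its log2 fold change was -2.46 (adjusted p = 5.67e-21, SE 0.11). Nup153, which anchors the nuclear basket, measured 69.3, 87.6 and 110 CPM in cells and 11.0, 20.2 and 28.4 CPM in EVs, at a log2 ratio of -2.23 (adjusted p = 3.87e-20, SE 0.11). For none of Nup54, Nup98 and Nup153 did the EV and cell libraries overlap. The other basket gene, Nup50, was higher by 0.59 (adjusted p = 1.65e-05, SE 0.11), with 25.3, 34.9 and 46 CPM in cells and 27.4, 53.6 and 74.7 CPM in EVs, and its ranges overlapped. On library totals the Nup50 value was -0.18 (adjusted p = 0.304), without the filter -0.03 (adjusted p = 0.849). It lost the call in control libraries alone (0.47, adjusted p = 0.0703) and on counts summed per culture (0.24, adjusted p = 0.241).

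In the outer ring, the scaffold on both faces, Nup37 (-1.17), Nup107 (-1.14) and Nup160 (-0.93) were lower, Nup133 was higher (0.43, adjusted p = 0.0025) and Nup85 did not pass (-0.23, adjusted p = 0.279). Without pregnancy 3 the values of Nup37 and Nup107 were -0.57 each (adjusted p = 0.00712 and 0.0028) and that of Nup133 was 0.65, while on library totals Nup133 was at -0.37 (adjusted p = 0.0472) and on counts summed per culture at 0.20 (adjusted p = 0.304). On the cytoplasmic side Nup88 was lower (-0.92) and Nup214 higher (0.57). Nup214 was at -0.20 on library totals and at 0.26 (adjusted p = 0.217) on counts summed per culture. The membrane nucleoporin Nup210 (0.20, adjusted p = 0.367) and its relative Nup210l (-0.06, adjusted p = 0.795) did not pass. Nup62cl, on chromosome X, had the highest value of the 43 (2.16, adjusted p = 7.54e-10, SE 0.25) on few reads, with 15 to 36 counts in cells (0.328 to 0.768 CPM) and 0 to 13 in EVs (0 to 5.52 CPM). The filter took libraries of both locations together, so a gene this low in cells can enter through EV libraries where it is high. Protein-coding genes tested under 1 CPM in cells had a median of 2.12, so the value of Nup62cl is not particular to it. Nup43 was listed at 0 in every library, and Nup62, whose exons share 12.3% of their bases with Il4i1, had 1 count in 1 cell library, so neither was tested.

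Per kilobase of canonical transcript, the order of levels differed between the locations. In cells Ipo7 stood first at 55.7 ± 10.8 CPM per kb (SD, n = 18), followed by Kpnb1 (28.9 ± 8.84), Xpo1 (27.9 ± 7.07), Tnpo1 (27.3 ± 3.03) and Xpot (26.0 ± 4.48), and these 4 lay within 1 SD of each other. In EVs Kpnb1 stood first at 78.6 ± 26.6 CPM per kb and Kpna6 next at 42 ± 15.4, followed by Ipo7 (21.5 ± 3.98), Tnpo1 (13.8 ± 2.91) and Xpot (13.4 ± 2.46), the last 2 within 1 SD of each other. Kpna1 was at 14 ± 1.12 CPM per kb in cells and 5.71 ± 0.98 in EVs.

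Of 24 further nuclear transport genes outside the symbol rule (other nucleoporins, Ran regulators and mRNA export factors), all were tested and 17 were lower and 4 higher in EVs, with a median of -0.90. The smallest p-values belonged to Ranbp2, the large nucleoporin of the cytoplasmic filaments (-2.58, adjusted p = 7.39e-25), Tmem33, a membrane protein associated with the pore (-2.69, adjusted p = 1.75e-21), Ahctf1, which seeds pore assembly on chromatin (-1.74, adjusted p = 5.93e-19), and Nxf1, the main mRNA export receptor (-2.14, adjusted p = 2.45e-18). The 4 higher genes were Rae1, the mRNA export factor Gle1 (1.67, adjusted p = 4.28e-14), the helicase Ddx19b (0.65, adjusted p = 1.34e-06) and Rangap1, which activates the GTPase of Ran (0.38, adjusted p = 0.0175). Rae1, a partner of Nup98 in mRNA export that was singled out after its values were seen, was 858 ± 1029 CPM (SD, n = 18) in EVs against 27.2 ± 5.82 CPM in cells, and its EV libraries ranged from 106 to 4027 CPM. The 3 highest Rae1 values were the 3 EV libraries of the male culture of pregnancy 5. Of 15 proliferation genes, 9 were lower and 0 higher in EVs, and their summed level was 475 to 1673 CPM in cells and 324 to 560 CPM in EVs.

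The EV to cell difference was also set beside properties of the transcripts. Across the 43 members the Spearman correlation of the log2 fold change with the G+C content of the canonical transcript was 0.57 (Pearson 0.45), with coding G+C content 0.60, with the level in cells -0.29 and with transcript length 0.06. These are descriptions across genes of the same libraries, which are not independent replicates. Across 13002 protein-coding genes tested the Spearman values were 0.27, 0.28, -0.46 and 0.14 in the same order. Across the 6375 of them above 15 CPM in cells, where most members lay, they were 0.37, 0.36, -0.18 and 0.17. The 9 members with under 42% G+C had a median of -1.43 and the 11 with over 50% a median of -0.23. Protein-coding genes above 15 CPM in cells had medians of -1.39 and -0.25 in these bands. In the 2 bands between, the medians were -1.17 and -0.37 for members and -1.06 and -0.63 for those genes. The member bands hold all 43, also those below 15 CPM, among them Nup62cl (2.16) in the band under 42%. Kpna6 (49.2% G+C, 2.13) and Nup98 (48.1%, -2.46) lay on either side of the median of -0.63 for the band of 46 to 50%. By level, the median of protein-coding genes went from 2.12 under 1 CPM in cells to -1.17 over 150 CPM, and members lay above the genes of like level in some bands and below in others. Their median was -0.23 beside -0.55 at 15 to 50 CPM (17 members), -0.99 beside -0.84 at 50 to 150 CPM (17) and -0.99 beside -1.17 over 150 CPM (5). At 5 to 15 CPM it was -1.17 beside -0.19 (3 members), and the 1 member under 1 CPM was at 2.16 beside 2.12.

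**Figure D3:**
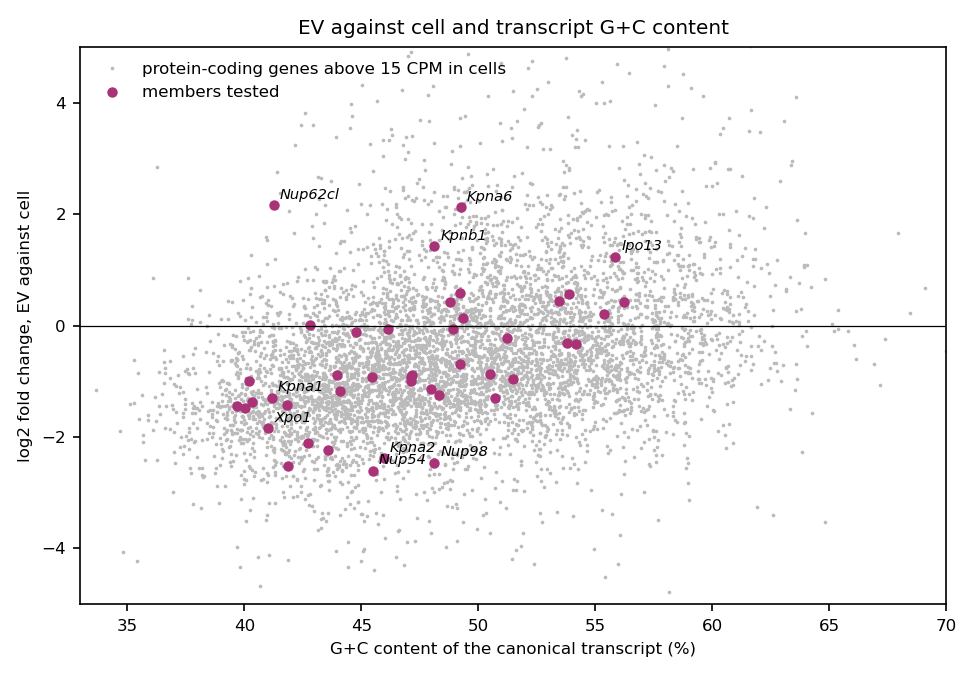
Log2 fold change of EV against cell by G+C content of the canonical transcript in percent, for the 43 members tested (purple) and for protein-coding genes above 15 CPM in cells (grey); 29 of 6379 points lie outside the axes. Values rise with G+C content in both sets, and Kpna6 and Nup62cl lie above and Nup54 and Nup98 below the other members of like G+C content.

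Ethanol was compared with control medium within cultures. In cells no member passed the threshold at either dose: 0 of 43 were called at 120 mg/dL (0% of all genes tested), 0 at 320 mg/dL (0.0393%) and 0 between the doses (0%). At an unadjusted p under 0.05, edgeR gave 0 of 43 members at 120 mg/dL (2.50% of all genes tested), 7 at 320 mg/dL (8.57%), 6 of them lower and 1 higher, and 0 between the doses (3.56%). DESeq2 called 0 members at an adjusted p under 0.05 in each, also at 320 mg/dL, where it called 94 of 15720 genes. There it gave 5 members an unadjusted p under 0.05. All genes at that unadjusted level were not counted for DESeq2, so these 5 cannot be set beside a share. The members' median log2 fold change was -0.04 at 120 mg/dL and -0.06 at 320 mg/dL, beside -0.01 and -0.01 over all genes.

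Kpna1 in cells was at 72.8, 76.7 and 86.9 CPM (lowest, median and highest of 6 cultures) in control medium, 66.1, 78.0 and 90.5 CPM at 120 mg/dL and 68.7, 75.7 and 83.3 CPM at 320 mg/dL. The 3 ranges overlapped, at log2 values of 0.00 (SE 0.06) and -0.04 (adjusted p = 0.886, SE 0.06). Kpnb1, Ran, Cse1l and Xpo1 lay between -0.16 and 0.17 at 320 mg/dL, with adjusted p of 0.586 or above. The smallest unadjusted p-values at 320 mg/dL, none of which passed after adjustment, belonged to the tRNA exportin Xpot (-0.23, adjusted p = 0.438, below control in 6 of 6 cultures) and Ipo9 (-0.20, adjusted p = 0.496, below control in 6 of 6). Both were picked by p in the same cultures, so 6 of 6 is no separate support, and Ipo5 and Nup160 were also below control in 6 of 6. Xpot measured 94.2, 121 and 141 CPM in control medium and 86.9, 97.1 and 122 CPM at 320 mg/dL, which overlapped. At 120 mg/dL the smallest were those of Ipo4 (-0.21) and Xpo1 (0.14), and between the doses those of Nup62cl (0.32) and Xpo5 (-0.13), each with an adjusted p of 1.

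In EVs no member passed either in edgeR: 0 of 41 tested were called at 120 mg/dL (0.00842% of all genes tested), 0 at 320 mg/dL (0.0842%) and 0 between the doses (0%). At an unadjusted p under 0.05 there was 1 member at 120 mg/dL (6.26% of all genes tested), 9 at 320 mg/dL (11.9%), 8 of them lower and 1 higher, and 1 between the doses (3.69%). DESeq2 called 4 members at 320 mg/dL, Nup210, Ipo4, Ipo9 and Kpnb1, all lower, out of 31 members and 4924 genes that it gave an adjusted p, of which it called 5.42%, and 0 in the other 2 comparisons. The call of these 4 thus depended on the tool.

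Nup210, a nucleoporin of the pore membrane with roles in cell differentiation, was at 24.5, 31.7 and 79.0 CPM in control EVs, 14.6, 25.6 and 87.0 CPM at 120 mg/dL and 12.7, 23.8 and 62.0 CPM at 320 mg/dL. The ranges overlapped, and within cultures the level at 320 mg/dL was below control in 6 of 6, at a log2 ratio of -0.53 (SE 0.12, edgeR adjusted p = 0.119, DESeq2 adjusted p = 0.0193). Ipo4, an importin of histones and ribosomal proteins whose exons share 55.3% of their bases with another annotated gene on the same strand, was at 29.9, 52.1 and 56.5 CPM in control EVs and 17, 36.1 and 45.0 CPM at 320 mg/dL. It was below control in 6 of 6 cultures (-0.50, SE 0.13, edgeR adjusted p = 0.136, DESeq2 adjusted p = 0.0261). Without pregnancy 4 it passed in edgeR (-0.58, adjusted p = 0.0495), in a fit that called 110 of 11801 genes, beside 10 of 11880 in the main fit. Without pregnancy 3 or without pregnancy 5, 0 members passed. The outer ring gene Nup133 (-0.44, adjusted p = 0.146) and the importin alpha gene Kpna6 (-0.38, adjusted p = 0.339) were among the 8 lower, and Kpna3 (0.30, adjusted p = 0.316) was the 1 higher. In cells the same cultures gave Nup210 above control in 3 and below in 3, and Ipo4 above in 2 and below in 4. The other 2 that DESeq2 called went lower in cells too, Ipo9 in 6 of 6 cultures and Kpnb1 in 5 of 6. In EVs Ipo9 was below control in 6 of 6, by 0.15 to 1.60 in log2 (CPM + 1). As these genes were named for their p-values in the same cultures, 6 of 6 is no separate support. Cultures in 1 direction were not counted over all genes.

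Kpnb1 in EVs was at 334, 610 and 686 CPM in control medium, 204, 437 and 690 CPM at 120 mg/dL and 221, 443 and 575 CPM at 320 mg/dL. At 320 mg/dL it was below control in 6 of 6 EV cultures and in 5 of 6 cell cultures, at log2 values of -0.45 (adjusted p = 0.269, SE 0.16) and -0.16 (adjusted p = 0.586, SE 0.08). Kpna1 in EVs was at 24.1, 30.1 and 40.0 CPM in control medium, 23.7, 30.6 and 39.6 CPM at 120 mg/dL and 24.8, 33.9 and 37.7 CPM at 320 mg/dL, which overlapped, at log2 values of 0.01 (SE 0.11) and 0.08 (adjusted p = 0.862, SE 0.11). Ran (0.05), Cse1l (-0.07) and Xpo1 (0.32) at 320 mg/dL did not pass either. The 2 smallest unadjusted p-values at 120 mg/dL were those of Nup133 (-0.35, adjusted p = 0.769, SE 0.12) and Cse1l (-0.20, adjusted p = 0.806, SE 0.10), and between the doses those of Ipo4 (-0.30) and Nup88 (-0.39), each with an adjusted p of 1. No gene of the wider transport list or of the proliferation list passed in EVs or cells at either dose.

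**Figure D4:**
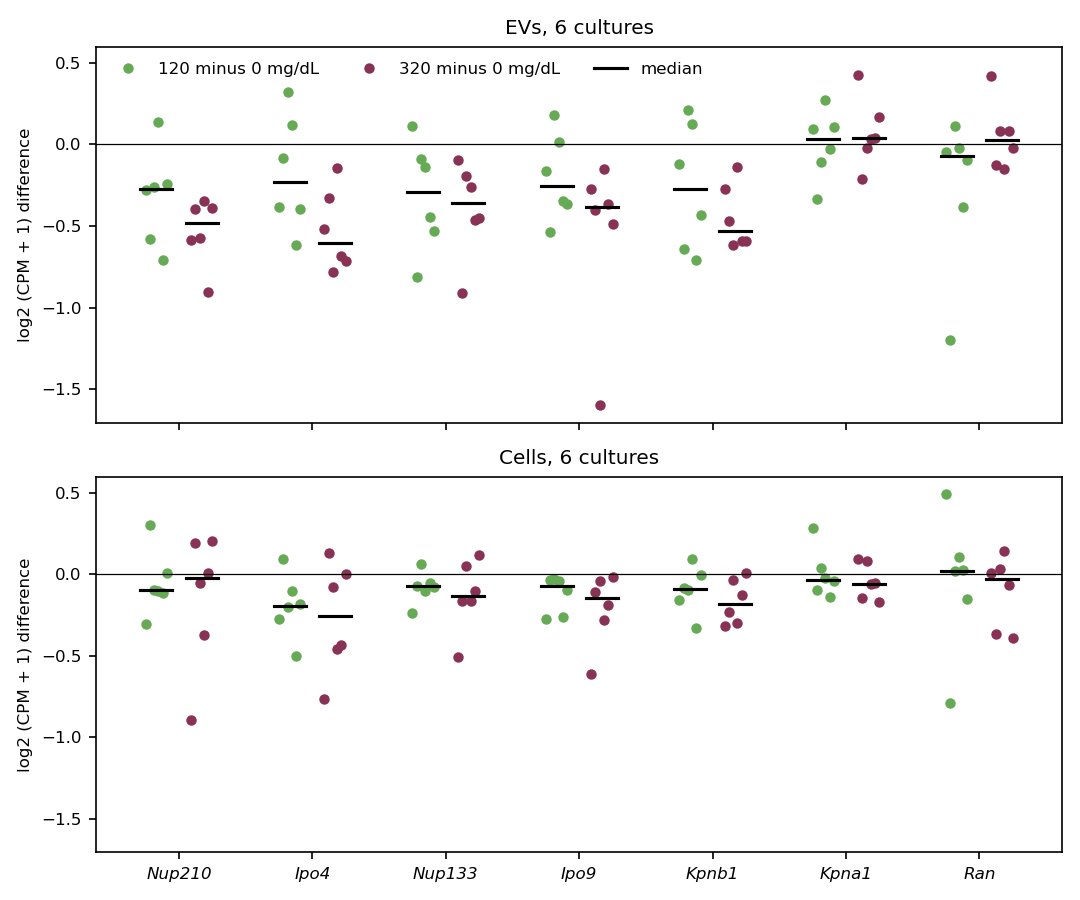
Difference in log2 (CPM + 1) between 120 or 320 mg/dL ethanol and control medium in each of 6 cultures, for 7 members in EVs (top) and cells (bottom), with the median as a black line. In EVs at 320 mg/dL all 6 cultures lie below 0 for Nup210, Ipo4, Nup133, Ipo9 and Kpnb1, and Kpna1 and Ran lie on both sides of 0. Nup210, Ipo4, Nup133 and Ipo9 are shown for their p-values in these same cultures. Nup160, Nup214 and Nup85, not shown, also lay below control in 6 of 6.

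Whether ethanol moved a gene differently in EVs than in cells was tested as an interaction of location and dose. No member passed: 0 of 43 at 120 mg/dL (0.00654% of all genes tested) and 0 at 320 mg/dL (0%), with 0 at an unadjusted p under 0.05 at both doses (0.720% and 1.17% of all genes tested). DESeq2 called 0 members at both doses. The smallest p-values at 320 mg/dL were those of Nup98 (0.34, SE 0.24) and Nup153 (0.32, SE 0.23), and at 120 mg/dL those of Nup98 (0.31, SE 0.24) and Nup93 (0.39, SE 0.35), each with an adjusted p of 1. The interaction of Kpna1 at 320 mg/dL was 0.13 (SE 0.20) and that of Kpnb1, importin beta, was -0.28 (SE 0.37). The standard error of Kpnb1 was 0.16 in the comparison of EVs alone. In a test on simulated data this fit made no calls, as did the fits for sex, so a count of 0 members there does not show that the members did not differ.

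Females and males were compared on counts summed over the doses of a culture, 3 cultures against 3, with the pregnancy as a block. In cells 0 of 44 members passed (0.0334% of all genes tested), and 2 had an unadjusted p under 0.05 (7.78%), Xpo7 (0.63 higher in females, adjusted p = 0.51, SE 0.16) and Kpna7 (0.98, adjusted p = 0.639, on 13 counts or fewer per library). In EVs 0 of 43 passed (0% of all genes tested) and 6 had an unadjusted p under 0.05 (20.7%). DESeq2 called 0 members in both locations. Ipo13 had the smallest p in EVs (-0.76, adjusted p = 0.199, SE 0.20), and its means per culture were 45.3, 33.8 and 24.5 CPM in females and 53.4, 55.5 and 49.9 CPM in males of pregnancies 3, 4 and 5. Every female culture was below every male culture. As Ipo13 was picked by its p in these same cultures, this separation is no separate support, and it was not counted over all genes. Nup62cl was next (1.42, adjusted p = 0.199, SE 0.39) on its few counts. Kpna1 (-0.38, adjusted p = 0.287, SE 0.18), Kpnb1 (-0.63, adjusted p = 0.325, SE 0.34), Ran (-0.30), Cse1l (-0.24) and Xpo1 (0.23) did not pass in EVs, nor did any of the 5 in cells, where the values lay between -0.09 and 0.24.

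When the 18 libraries of a location were taken as independent, with the pregnancy as a block and a dose term, 4 members passed in cells (Xpo7, Xpo1, Nup88 and Kpna4), where 17.3% of all genes passed, and 6 in EVs (Ipo13, Ipo4, Kpna1, Kpna6, Nup210l and Nup214), where 27.1% passed. That fit counts the 3 doses of a culture as separate replicates.

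The spread was also divided between cultures and doses, of which there are 6 and 3, so that the culture can take a larger share even without a difference. In cells the culture accounted for a median of 83.8% of the spread of the members' log2 (CPM + 1) over 18 libraries, beside 76.8% over all genes tested, and the dose for 2.33% beside 2.35%. In EVs the figures were 60.2% and 53.2% for the culture and 8.39% and 6.11% for the dose. Kpna3 in EVs went the other way, with 26.6% for the culture and 36.9% for the dose. Nup107, an outer ring nucleoporin, had the highest share in cells (98.8%), with means of 39.5 and 43.6 CPM in the female and male culture of pregnancy 3, 30.4 and 16.8 CPM in those of pregnancy 4 and 14.1 and 15.6 CPM in those of pregnancy 5. The 3 libraries of a culture stayed close together, as in the male culture of pregnancy 4 with 16.2 to 17.3 CPM. Nup155 (98.6%) and Nup85 (97.9%) had their highest means in the same male culture of pregnancy 3 (64.3 and 46.4 CPM) and their lowest in the female culture of pregnancy 5 (23.1 and 13.2 CPM).

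Among the 43 members the male culture of pregnancy 3 had the highest mean in cells for 27, and the female culture of pregnancy 5 the lowest for 21. The same count was not made over all genes tested, so it cannot be told whether this is particular to the members. Cse1l went from 113 CPM in the former to 58.5 CPM in the latter and Ran from 135 to 70.7 CPM. Kpna1 varied less, from 82.3 to 69.7 CPM, and Kpna4 was higher in the female culture of pregnancy 5 (91.5 CPM) than in the male culture of pregnancy 3 (79.5 CPM). The summed level of the 15 proliferation genes in cells was 1389 CPM in the male culture of pregnancy 3, 913 and 888 CPM in the female cultures of pregnancies 3 and 4, and 569, 543 and 526 CPM in the female and male cultures of pregnancy 5 and the male culture of pregnancy 4. The part of proliferation in these differences was not tested. In EVs the highest mean fell to the male culture of pregnancy 4 for 13 members and to that of pregnancy 3 for 12, again without a count over all genes tested.

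**Figure D5:**
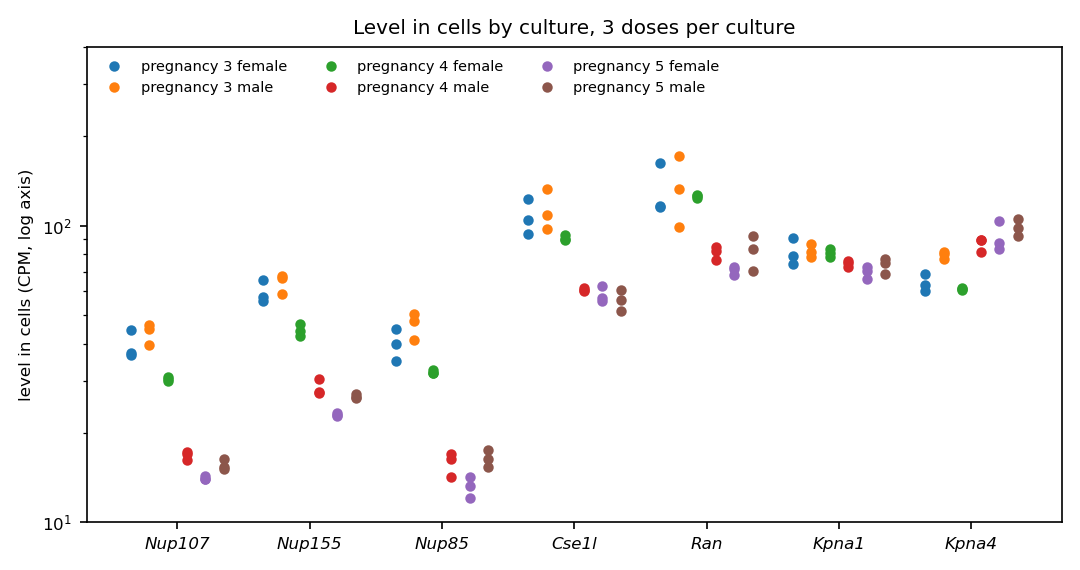
Level in cells in CPM on a log axis for 7 members, with 3 points (0, 120 and 320 mg/dL) for each of the 6 cultures. For Nup107, Nup155 and Nup85 both cultures of pregnancy 3 and the female culture of pregnancy 4 lie above the other cultures, Kpna1 varies little, and Kpna4 is lowest in the female cultures of pregnancies 3 and 4.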

How the data were processed

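The deposited values are whole read counts per gene and library, which the authors made from stranded, rRNA-depleted libraries by trimming (Trimmomatic), alignment to mm39 (STAR) and counting (HTSeq), per the submitters' processing notes, without normalization. How strand was set in counting is not given in the sources used here. The counts were used as deposited, and 0 columns were left out. In R 4.3.3 with edgeR 4.0.16, low counts were filtered with filterByExpr at a minimum count of 10 and a minimum total of 15, and libraries were scaled by TMM and tested with glmQLFTest, at Benjamini-Hochberg adjusted p under 0.05 over all genes. EV against cell had terms for sex and dose, doses the culture as a block, the ratio the EV and cell pair as a block, and sex the pregnancy as a block on counts summed over doses. CPM are on the TMM scale of the EV against cell fit, with 1 added before logarithms. Alternatives were DESeq2 1.42.0, median-of-ratios (RLE) scaling, library totals, no filter, other blocks, control libraries alone and leaving out each pregnancy. Each kind of fit was tested on simulated data, in which the ratio and sex fits made no calls.

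The labels place the EV and cell library of a number, sex and dose in the same culture, and the female and male culture of a number in the same pregnancy. The median correlation of their deviations from the group mean was 0.09 for EV and cell libraries (5 of 18 pairs over 0.1), 0.79 and 0.67 for cell libraries at 120 and 320 mg/dL and control, 0.32 and 0.37 for the same in EVs, and 0.43 and 0.16 between the sexes in cells and EVs. No 2 libraries of a group agreed within sampling noise. Libraries of a culture at different doses share their origin, so p-values for EV against cell measure the spread between libraries.

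Transcript length, G+C content and positions come from GENCODE M39 on GRCm39, by symbol (all 43 tested members and 93.4% of tested genes matched). The members and lists were chosen with earlier results of these data known. Named were Kpna1, Kpnb1, Ran, Cse1l and Xpo1 throughout, the 5 highest and 5 lowest members for EV against cell, and the 2 smallest p-values where no member passed; other members are named by role with their values, and those said to be chosen after their values were seen are Xpo7 and Rae1. Leaving out the 6 smallest EV libraries was added after seeing the data.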

Additional observations from a re-analysis of the deposited data

How the results depend on the processing

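For EV against cell, 25 to 28 members were lower and 8 to 9 higher when each pregnancy was left out, and their median minus that of all genes ranged from -0.76 to -0.63 (main value -0.81). Higher members numbered 4 on library totals and 5 each without the filter, in control libraries alone and with the culture as a replicate block on counts summed over doses. Without the filter and in the summed fit 4 of the 9 (Ipo13, Kpna6, Kpnb1 and Nup62cl) stayed higher, and the other was Kpna7, which the filter had left out. That median difference was -2.53 with DESeq2, -1.97 without the filter (both tested more low-count genes, and the median of all genes was 1.73 and 0.46) and -1.18 in the summed fit. On library totals the median of all genes moved to -0.88. With the EV and cell pair as a replicate block 28 were lower and 9 higher, and Xpo7 was the only member whose call changed. Nup50 was at -0.18 on library totals and -0.0293 without the filter. At 320 mg/dL in EVs DESeq2 called 4 members and leaving out each pregnancy 0 to 1. For sex, taking 18 libraries with the replicate block and a dose term called 4 members in cells and 6 in EVs. Without the replicate block, doses and sex gave 0 members, as did the ratio with location by culture in the block. Leaving out the 6 smallest EV libraries, chosen after seeing the data, gave 28 lower and 10 higher, and 0 members for doses in EVs. For the remaining cases the cause was not tested. EV depth limits Nup35, Nup37, Nup54, Nup62cl and Kpna7 (0 to 27 counts per EV library), and 3 cultures per sex limit that comparison.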
